A study of Rattus norvegicus with 36 samples.

Results

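Hbb, Alas2 and Car1 are genes usually read as erythroid, 3 of the 14217 genes named on the rat arrays. Each was measured by 1 of 31042 probe sets: Hbb by 1367553_x_at, Alas2 by 1367985_at and Car1 by 1372374_at. They were taken by their symbols in the platform annotation. The set was chosen by measured values, since the levels of the 3 genes over all dose groups and their covariation over the animals were in view, so their levels, their differences from vehicle and their correlations with each other are given here as a description, with no test. Livers of 36 male Harlan Sprague Dawley rats gave RNA for 36 arrays, 1 per animal. The rats were 7 weeks old at the start, received PBDE47, a brominated flame retardant, or corn oil alone by oral gavage (5 ml/kg) on 5 consecutive days, and their left liver lobe was taken 1 day after the last dose. The groups were corn oil vehicle and 5 doses of PBDE47 in corn oil that differ by the same factor, 0.0485 mg/kg at the low end, then 0.485, 4.85 and 48.5 mg/kg, and 485 mg/kg at the top, each with 6 animals. Nothing in the labels ties the samples to litters or cages, and each array is treated as 1 animal.

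Hemoglobin is built from alpha and beta globin chains and heme. Hbb encodes a beta chain, and Alas2 encodes the erythroid form of aminolevulinate synthase, the enzyme that starts heme synthesis in developing red cells, while Alas1 encodes the form used by the liver and other tissues. Car1 encodes a cytosolic carbonic anhydrase, which interconverts carbon dioxide and bicarbonate and is abundant in human red cells. A piece of liver carries blood, and young red cells still hold globin transcripts, so these can be read in liver RNA.

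Values are log2 signals after RMA, a normalization in which all arrays are brought to a shared distribution, so a difference of 1 is a 2-fold change and a value is relative to the other probe sets of its array. Array medians lay between 5.31 and 5.38. Arrays of a group correlated at r of 0.990 to 0.997 over probe sets, and replicate 6 of 4.85 mg/kg had the lowest mean correlation with its group (0.991). Hbb stood between percentiles 98.1 and 99.6 of its array over the 36 animals and Alas2 between percentiles 61.3 and 79.0. Car1 stood between percentiles 20.2 and 46.2, below the array median in every animal. No detection call was made, so folds of Car1 may understate the change.

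The upstream sequences of 3 globin genes are shown here because the probe sets of Hbb, of the beta globins Hbbl1 and Hbb-bs and of the alpha globins Hba-a1, Hba-a2 and Hba-a3 moved together over the animals. Each is the 250 bases before the gene's start in RefSeq, build GRCr8, written in the gene's direction. Hbb lies at chr1:167663722-167663971 (minus strand), Hbb-bs at chr1:167631631-167631880 (minus strand) and Hba-a1 at chr10:15842581-15842830 (minus strand). Capitals mark matches, on either strand, to 4 forms bound by GATA factors (AGATAA or AGATAG, and likewise TGATAA or TGATAG) and to CCNCNCCC, a form bound by KLF1, the erythroid factor of globin promoters.
Hbb: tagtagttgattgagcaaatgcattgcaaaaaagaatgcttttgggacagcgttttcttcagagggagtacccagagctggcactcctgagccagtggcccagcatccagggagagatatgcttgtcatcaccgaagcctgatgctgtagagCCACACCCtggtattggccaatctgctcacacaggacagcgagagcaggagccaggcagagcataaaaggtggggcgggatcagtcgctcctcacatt
Hbb-bs: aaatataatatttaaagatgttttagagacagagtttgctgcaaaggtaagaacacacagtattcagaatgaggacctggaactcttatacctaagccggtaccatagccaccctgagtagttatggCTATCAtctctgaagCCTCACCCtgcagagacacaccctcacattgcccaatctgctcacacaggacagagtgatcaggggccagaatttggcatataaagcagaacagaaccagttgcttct
Hba-a1: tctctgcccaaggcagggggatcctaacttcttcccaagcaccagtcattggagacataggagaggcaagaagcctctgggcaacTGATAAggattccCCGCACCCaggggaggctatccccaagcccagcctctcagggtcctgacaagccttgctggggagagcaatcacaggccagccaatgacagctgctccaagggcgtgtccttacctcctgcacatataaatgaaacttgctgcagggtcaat
The KLF1 form stood 98 to 91 bases before the start in Hbb (CCACACCC), 108 to 101 bases in Hbb-bs (CCTCACCC) and 152 to 145 bases in Hba-a1 (CCGCACCC). A GATA form stood 165 to 160 bases before the start in Hba-a1 (TGATAA) and 123 to 118 bases before it in Hbb-bs, where TGATAG lies on the other strand and is printed as CTATCA. The marked matches do not overlap each other. Of 33469 promoter windows of the same length, 42.8% held the KLF1 form and 27.0% held a GATA form, so a match is common. The part of these sequences in the joint movement of the probe sets was not tested. The Alas2 start of that table lies 4800 bases inside the annotated gene, so its window is not shown as a promoter. Car1 has no entry in the table.

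Hbb was lowest at 485 mg/kg. It ran from 12.59 over a median of 12.73 to 13.16 in vehicle animals. The lowest, median and highest values were 12.32, 12.61 and 12.86 at 0.0485 mg/kg, 12.43, 12.64 and 12.72 at 0.485 mg/kg, and 12.21, 12.51 and 12.79 at 4.85 mg/kg. They were 12.11, 12.78 and 13.00 at 48.5 mg/kg. The 6 animals of 485 mg/kg had 11.70, 11.70, 11.78, 12.22, 12.22 and 12.52. All 6 animals of 485 mg/kg lay below the lowest vehicle animal, and the other doses overlapped vehicle. Of all probe sets, 3.03% lay wholly below vehicle at 485 mg/kg; since Hbb was chosen with this contrast in view, nothing is read from that share.

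The Hbb mean was 12.02 ± 0.34 at 485 mg/kg against 12.80 ± 0.24 in vehicle (SD, n = 6 each), a log2 difference of -0.77 or 1.71-fold lower. From 0.0485 to 48.5 mg/kg the log2 differences from vehicle were -0.19, -0.19, -0.31 and -0.09. In order of mean level, 485 mg/kg was lowest, followed by 4.85, 0.485, 0.0485 and 48.5 mg/kg and then vehicle. Only the step between 485 and 4.85 mg/kg was larger than the SD of both groups. The difference at 485 mg/kg ran from -0.87 to -0.70 when each animal was left out in turn. The difference at 48.5 mg/kg was 0.03 without replicate 1 of that dose, so its sign rested on that animal.

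Alas2 was also lowest at 485 mg/kg, with more spread. Vehicle animals ran from 6.81 over a median of 7.07 to 7.54. The lowest, median and highest values were 6.47, 7.03 and 7.38 at 0.0485 mg/kg, 6.75, 6.95 and 7.34 at 0.485 mg/kg, and 6.61, 7.01 and 7.48 at 4.85 mg/kg. They were 6.56, 7.36 and 7.74 at 48.5 mg/kg and 6.13, 6.52 and 7.30 at 485 mg/kg. Every dose group overlapped vehicle, and 4 of the 6 animals at 485 mg/kg lay below the lowest vehicle animal.

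The Alas2 mean was 6.60 ± 0.46 at 485 mg/kg and 7.15 ± 0.26 in vehicle (SD, n = 6 each), a log2 difference of -0.55 or 1.46-fold lower. The log2 differences were -0.17, -0.12 and -0.13 at the 3 lowest doses and 0.14 at 48.5 mg/kg. In order of mean level, 485 mg/kg was lowest and 48.5 mg/kg highest, and no neighbours in that order differed by more than the larger of their SDs. Without replicate 4 of 485 mg/kg, the animal highest in Alas2 and Hbb of that group, the differences were -0.69 for Alas2 and -0.87 for Hbb. Without replicate 1 of 485 mg/kg that of Alas2 was -0.46. Without replicate 1 of 48.5 mg/kg, the lowest of its group in both genes, the Alas2 difference at that dose was 0.29.

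Car1 had another dose pattern, with low values at both upper doses. Vehicle animals ran from 4.65 over a median of 4.76 to 5.06. The lowest, median and highest values were 4.22, 4.64 and 5.08 at 0.0485 mg/kg, 4.63, 4.68 and 5.02 at 0.485 mg/kg, and 4.23, 4.59 and 4.71 at 4.85 mg/kg. They were 3.99, 4.10 and 4.31 at 48.5 mg/kg and 3.68, 3.83 and 3.97 at 485 mg/kg. No animal of 48.5 or 485 mg/kg reached the lowest vehicle animal, and none of 485 mg/kg reached the lowest of 48.5 mg/kg. Of all probe sets 0.677% lay wholly below vehicle at 48.5 mg/kg and 3.03% at 485 mg/kg. The share between the upper doses was not counted. Since Car1 was chosen with these contrasts in view, nothing is read from the shares.

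The Car1 mean was 4.14 ± 0.14 at 48.5 mg/kg and 3.83 ± 0.09 at 485 mg/kg, against 4.80 ± 0.16 in vehicle (SD, n = 6 each). The log2 difference was -0.66 at 48.5 mg/kg, or 1.59-fold lower, and -0.97 at 485 mg/kg, or 1.97-fold lower. At 0.0485, 0.485 and 4.85 mg/kg it was -0.18, -0.04 and -0.25, each overlapping vehicle. In order of mean level the groups ran from 485 over 48.5, 4.85, 0.0485 and 0.485 mg/kg to vehicle, and the neighbours among the upper 4 differed by less than their SDs. The 4.85 mg/kg difference was -0.18 without replicate 6, the array with the lowest correlation with its group. Between the upper doses, 485 minus 48.5 mg/kg, the log2 difference was -0.68 for Hbb, -0.69 for Alas2 and -0.31 for Car1. In bulk liver RNA, fewer cells of a type and less RNA per cell cannot be told apart.

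**Figure D1:**
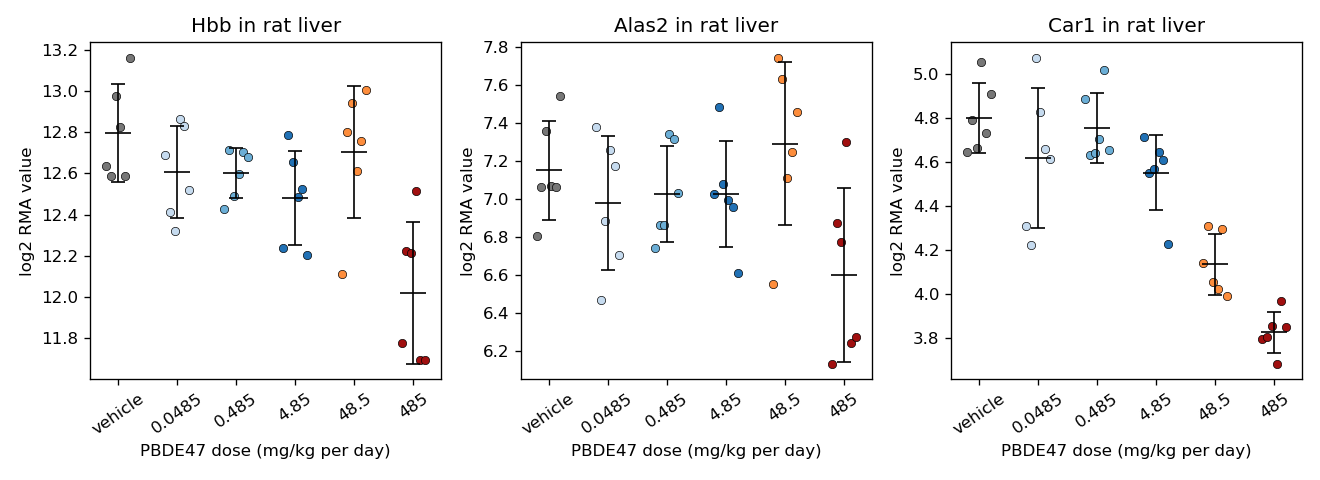
Log2 RMA value of Hbb, Alas2 and Car1 (vertical axes, a scale of its own per gene) by PBDE47 dose in mg/kg per day (horizontal axes). Each point is 1 animal, 6 per group, and the bars are mean ± SD. Hbb and Alas2 are low at 485 mg/kg and not at 48.5 mg/kg, while Car1 is low at both.

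Within dose groups Hbb and Alas2 varied together, and little covariation of Car1 with them was seen over the 36 animals. Car1 lay below the array median in every animal, and the effect of this low level on its correlations was not tested. For the correlations, each animal's value was taken as its deviation from the mean of its group. The SD of these deviations was 0.257 for Hbb, 0.349 for Alas2 and 0.186 for Car1. Over 36 animals the deviations of Hbb and Alas2 correlated at Pearson r = 0.86 and Spearman rho = 0.82, and r was 0.80 without the 2 animals farthest in Hbb. A log2 unit of Hbb went with 1.17 log2 units of Alas2, and in 29 of 36 animals both deviated to the same side. Within single groups r ran from 0.52 at 0.485 mg/kg to 0.98 at 485 mg/kg (6 animals each).

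Hbb and Car1 deviations correlated at r = -0.03 (rho = -0.05), and at 0.02 without the 2 farthest animals. Within single groups their r ran from -0.72 at 485 mg/kg to 0.34 in vehicle. Alas2 and Car1 deviations correlated at r = 0.12 (rho = 0.13), and at 0.21 without the 2 animals farthest in Alas2. Within single groups the r of Alas2 with Car1 ran from -0.68 at 485 mg/kg to 0.55 at 4.85 mg/kg. With the values themselves in place of deviations, which adds the dose groups' own differences, r was 0.86 for Hbb with Alas2, 0.47 for Hbb with Car1 and 0.29 for Alas2 with Car1. The points are animals of shared dose groups on jointly normalized arrays. Since the genes were chosen with these values known, the correlations only describe the animals, and Hbb with Alas2 and Car1 are given apart from here on.

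**Figure D2:**
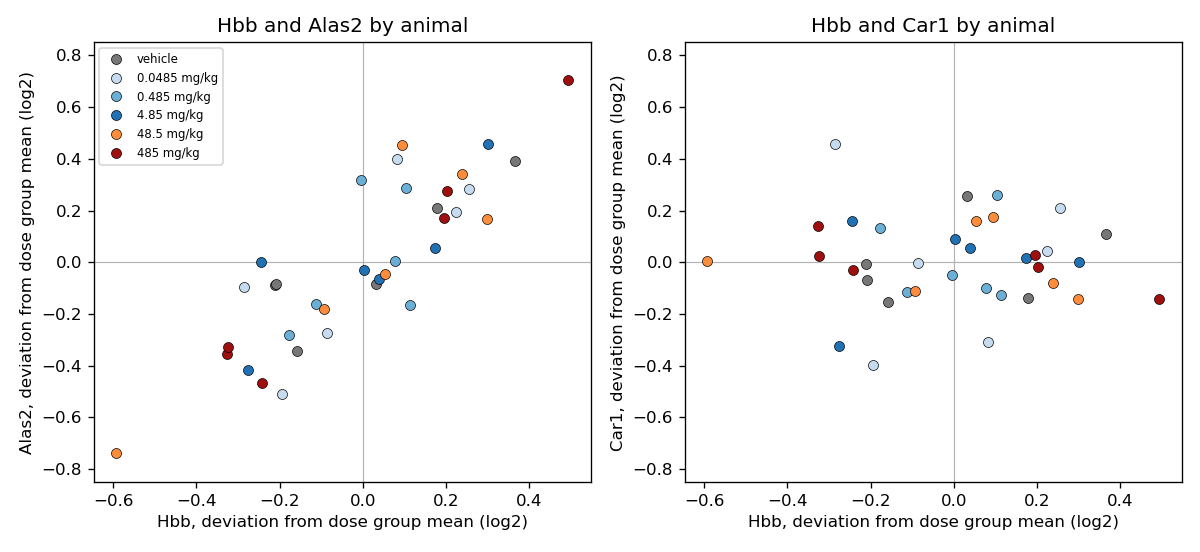
Deviation of each animal from its dose group mean, in log2 units, for Hbb (horizontal axes) against Alas2 (left, vertical axis) and Car1 (right, vertical axis). Each of the 36 points is 1 animal, coloured by dose. The Alas2 points follow a line (r = 0.86) and the Car1 points do not (r = -0.03). Car1 lay below the array median in every animal.

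Few probe sets of the array followed Hbb within dose groups, and most of them were of alpha and beta globins. A limma model with the group and the Hbb value as terms was fitted to the 31039 probe sets other than the 3 described. At an adjusted p below 0.05, 8 probe sets had a slope on Hbb, or 0.0258%, all positive. They were 6 probe sets of Hbbl1, Hbb-bs, Hba-a1, Hba-a2 and Hba-a3, called the 6 alpha and beta globin probe sets here, with Cdc25b and Bpgm. Beta globin genes are close copies of each other, as are alpha globin genes, so the beta globin probe sets can partly read the same transcripts as the Hbb probe set and are not independent of it.

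The 2 probe sets assigned jointly to the beta globins Hbbl1 and Hbb-bs had slopes of 1.21 ± 0.05 (1371102_x_at) and 1.25 ± 0.07 (1371245_a_at, SE), with adjusted p of 1.38e-19 and 1.39e-14 in limma. The 3 joint probe sets of the alpha globins Hba-a2 and Hba-a1 had slopes from 0.69 to 0.92, and Hba-a3 (1375519_at) had 1.00 ± 0.08 (adjusted p = 1.59e-10). The slope is the log2 change of the probe set per log2 unit of Hbb. Mean levels were 11.50 and 11.33 for the joint beta globin probe sets, 12.85 to 13.70 for the joint alpha globin ones and 10.33 for Hba-a3. The effect of the level on the sizes of their slopes and of their differences from vehicle was not tested. The r of deviations with Hbb was 0.92 to 0.99 for these 6 probe sets, with Alas2 0.85 to 0.89, and with Car1 -0.09 to 0.00. The 5 other globin probe sets, of Hbe1, Hbe2, Hbg1, Hbz and jointly Hbq1b and Hbq1, had no called slope on Hbb or Alas2. Their slopes on Hbb ran from -0.01 ± 0.07 for Hbe2 to 0.25 ± 0.10 for the Hbq1 probe set (SE, limma adjusted p = 0.993 and 0.814).

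Cdc25b, a phosphatase that activates cyclin-dependent kinases, had a slope of 0.83 ± 0.11 on Hbb (1370034_at, limma adjusted p = 3.42e-05, r of deviations 0.81). Its values ran from 4.30 to 4.88 at 485 mg/kg and from 4.72 to 5.32 in vehicle. Bpgm, whose enzyme makes the red cell regulator of oxygen binding by hemoglobin, had a slope of 0.39 ± 0.07 (1388544_at, adjusted p = 0.0154, r of deviations 0.74). This Bpgm call was lost in 6 of 43 alternative settings: with a replicate block (adjusted p = 0.230), after quantile normalization, and without vehicle replicate 6, 4.85 mg/kg replicate 2 or 485 mg/kg replicate 4 or 5. The gene's other probe set, 1383551_at, had 0.38 ± 0.08 (adjusted p = 0.0679). The same fit on Alas2 called 8 probe sets, 7 positive (0.0226%) and 1 negative (0.00322%). They were the 6 alpha and beta globin probe sets with slopes of 0.47 to 0.86, Cdc25b at 0.51 ± 0.10 and a negative one not assigned to a gene here. The globin slopes on Alas2 are no separate evidence, since Hbb and Alas2 were chosen with their covariation known. The Cdc25b slope on Alas2 (adjusted p = 0.0405) was lost in 25 of 42 alternatives.

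No probe set followed Car1 within dose groups. Limma called 0 of 31039, with 2566 at an unadjusted p under 0.05 (8.27%), against 1793 (5.78%) for Hbb. The ordinary test without moderation called 1, and leaving out vehicle replicate 4 gave 1. Beside this, the 3′ minus 5′ signal of control probe sets, a measure of RNA integrity, correlated with Car1 deviations at r = -0.45 for Gapdh and -0.15 for Actb, with Alas2 deviations at -0.16 and -0.20, and with Hbb deviations at -0.01 for both. The part of RNA integrity in these values was not tested.

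The named genes most like Hbb by r of deviations over 36 animals were Hba-a3 (0.92), Cdc25b (0.81), Bpgm (0.74), the ubiquitin ligase gene Mkrn1 (0.65), Egfr (0.61), Nanp (0.59), Clint1 and Alox15 (0.58 each), and Txnrd3 and Slc38a1 (0.57 each). The lowest were Mier2 (-0.68), Nrn1l (-0.61) and Depdc1b (-0.59). For Alas2 they were Hba-a3 (0.85), Bpgm and Cdc25b (0.68 each), Kcnc2, Hist3h2ba and Nfe2l1 (0.64 each), Terf1 (0.63), Fxr1 (0.62), and Rrn3 and Arih1 (0.61 each), with Creb5 (-0.61), Tmod2 and Nos1ap (-0.60 each) lowest. The lists of Hbb and Alas2 begin with the same 3 genes. For Car1 they were Tardbp (0.75), Rras2 (0.69), Fam8a1 (0.66), Ube2q2 and Vps4a (0.63 each), Smad4, Zdhhc6 and Phf5a (0.62 each), and Cbfb and Rnpc3 (0.61 each), with Spata19 (-0.68), Fgf12 (-0.66) and Timm8a2 (-0.64) lowest. Of all these genes Hba-a3 and Cdc25b had a called slope on Hbb and on Alas2, and Bpgm on Hbb.

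**Figure D3:**
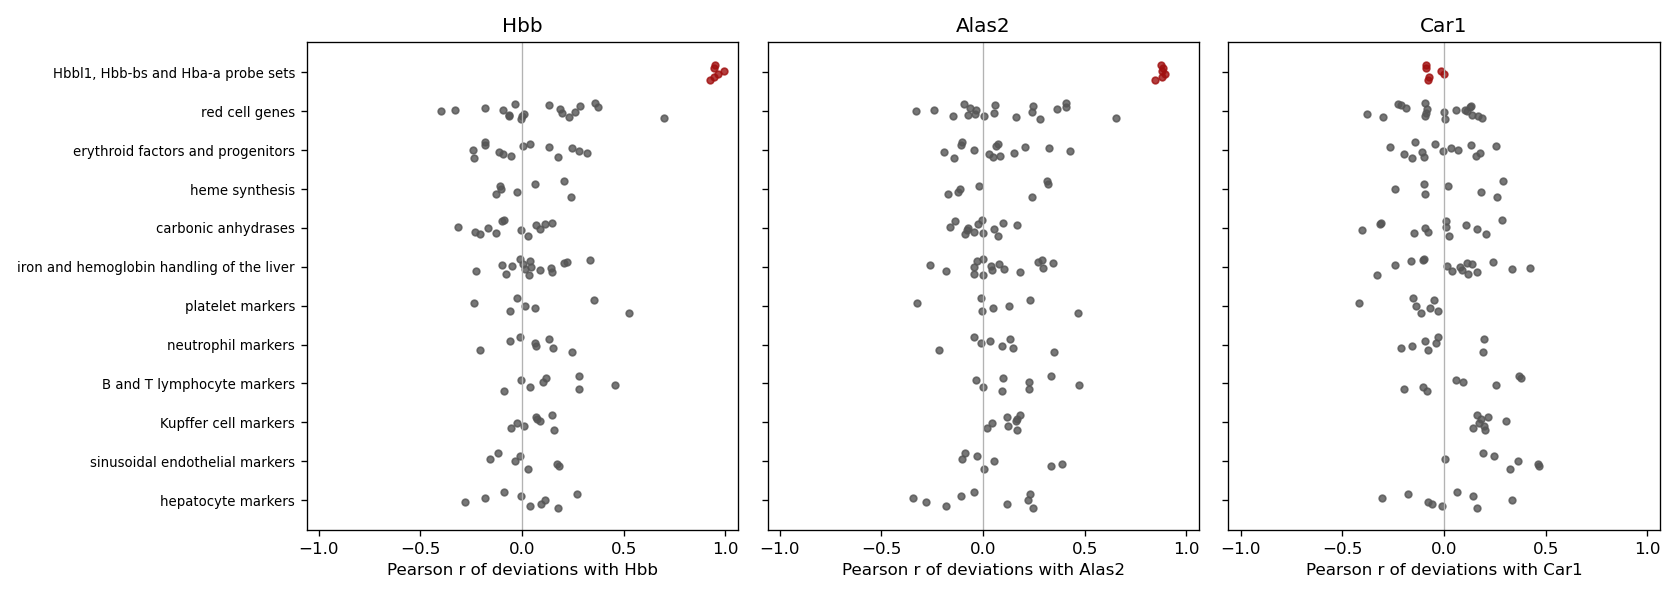
Pearson r of deviations from dose group means over 36 animals with Hbb, Alas2 and Car1 (horizontal axes) for the 6 alpha and beta globin probe sets (top row) and the genes of 11 lists (other rows). Each point is 1 probe set. The 6 globin probe sets lie near the right edge for Hbb and Alas2 and near 0 for Car1, and the point apart in the red cell row of the Hbb and Alas2 panels is Bpgm.

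In the red cell list, the genes with a called slope on Hbb were Hba-a3 and Bpgm. The list held 20 measured genes, and limma called a slope on Hbb for Hba-a3 alone when each gene was read by its brightest probe set. The median r of deviations with Hbb was 0.07 in the list and 0.01 over all 14217 named genes. Ahsp, the chaperone of free alpha globin, had a slope of 0.27 ± 0.12 (adjusted p = 0.859), and Slc4a1, the anion exchanger of the red cell membrane, had -0.11 ± 0.11 (adjusted p = 0.933). Of the 20 genes, 14 had a mean below the lowest array median of 5.31 (70.0%), against 32.1% of all named genes. Gata1 (3.60) and Klf1 (4.21), factors of red cell formation, also lay below it. No gene of the lists for platelets, neutrophils, lymphocytes, Kupffer cells, sinusoidal endothelium or hepatocytes had a called slope on Hbb, Alas2 or Car1 in limma. Of these 47 markers 3, 4 and 6 had an unadjusted p under 0.05 for Hbb, Alas2 and Car1 in that order. The 6 for Car1 held 3 of the 7 sinusoidal endothelial markers, whose median r of deviations with Car1 was 0.32, with Kdr at 0.47 and Pecam1 at 0.46. The median r with Car1 was 0.19 for the 8 Kupffer cell markers and 0.01 for all named genes. The part of these cells in the Car1 values was not tested.

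At 485 mg/kg the 6 alpha and beta globin probe sets were lower than in vehicle. Limma called 4665 probe sets there (15.0%), 7.22% lower and 7.81% higher, and all 6 of these were called lower. The log2 difference was -0.77 ± 0.17 and -0.80 ± 0.18 (SE) for the joint beta globin probe sets (adjusted p = 0.00111 and 0.00139). It was -0.46 ± 0.10, -0.46 ± 0.11 and -0.51 ± 0.14 for the joint alpha globin probe sets (adjusted p = 0.00156, 0.00202 and 0.00677), and -0.53 ± 0.15 for Hba-a3 (adjusted p = 0.0112). Hba-a3 ran from 9.56 over a median of 10.04 to 10.39 at 485 mg/kg, and from 10.35 over 10.48 to 10.91 in vehicle, so the groups overlapped. Both joint beta globin probe sets and the alpha globin probe set 1388608_x_at also overlapped, each with 5 of 6 animals below the lowest vehicle animal. The alpha globin probe sets 1370239_at and 1370240_x_at had all 6 below it, where 3.03% of all probe sets lay wholly below vehicle. Of the 5 other globin probe sets, those of Hbe1 and Hbe2 were called lower, and the differences were -0.11 ± 0.08 for Hbg1, -0.14 ± 0.06 for Hbz and -0.17 ± 0.09 for the Hbq1 probe set (SE, adjusted p = 0.476, 0.136 and 0.222). At the 4 lower doses 0 of the 6 alpha and beta globin probe sets were called, and none had an unadjusted p under 0.05. Over all probe sets limma, like the ordinary test, called 0 at 0.0485 and at 0.485 mg/kg, where 1519 and 1381 had an unadjusted p under 0.05. It called 6 (0.0193%) at 4.85 mg/kg, and at 48.5 mg/kg it called 1052 (3.39%), 2.57% of the array higher and 0.821% lower. The 6 probe sets read the same animals as Hbb and partly the same sequence, so their differences are not independent of it.

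**Figure D4:**
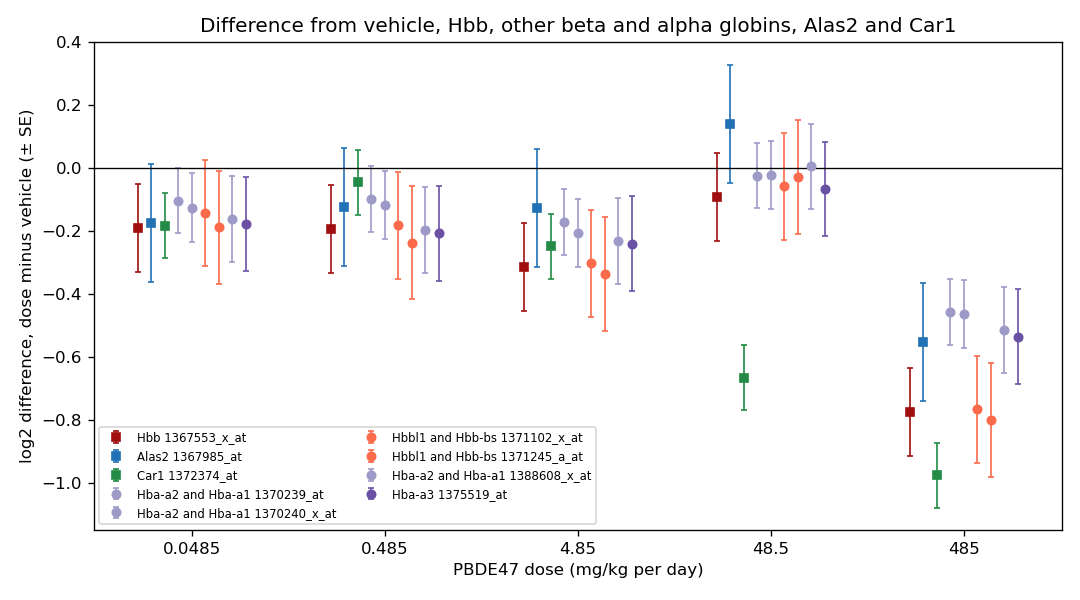
Log2 difference from vehicle (vertical axis, dose minus vehicle, bars ± SE from limma) by PBDE47 dose in mg/kg per day (horizontal axis) for Hbb, Alas2 and Car1 (squares) and the 6 alpha and beta globin probe sets (circles). At 48.5 mg/kg only Car1 lies far below 0, at -0.66. At 485 mg/kg all 9 lie below 0, between -0.97 and -0.46.

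Markers of other cells also moved at 485 mg/kg, and their part in the globin and Alas2 values was not tested. Limma called 4 of 8 Kupffer cell markers lower (median log2 difference -0.40), 3 of 7 sinusoidal endothelial markers (-0.24), 6 of 9 hepatocyte markers (-0.25) and 2 of 8 lymphocyte markers (-0.18), with none higher. Among named genes 9.41% were called lower and 11.5% higher at this dose. All 11 gene lists were chosen with earlier results of these data known, so the list counts here and below only describe these data. The median over all probe sets was -0.01. Of 7 platelet and 8 neutrophil markers limma called 0, with 1 and 0 at an unadjusted p under 0.05. The mean level of the Kupffer list ran from 8.19 to 8.75 at 485 mg/kg and from 8.84 to 9.06 in vehicle. Low animals were also seen at other doses, with lowest values of 8.32 at 0.485, 8.29 at 4.85 and 8.26 at 48.5 mg/kg. The lowest animal of 0.0485 mg/kg lay below vehicle as well. These other doses all overlapped vehicle, which had the smallest SD of the groups (0.09, against 0.28 at 48.5 mg/kg). The group mean was lowest at 485 mg/kg (8.48). The 3′ minus 5′ difference of Gapdh averaged -0.14 at 48.5 mg/kg, -0.10 at 485 mg/kg and -0.05 in vehicle, and that of Actb 1.16, 1.19 and 1.26 in the same order. Where Car1 was low at 48.5 mg/kg, 2 of 9 hepatocyte markers and 1 of 8 lymphocyte markers were called lower, and no Kupffer or endothelial marker. The share of named genes called lower at 48.5 mg/kg was 1.08%.

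Of the 20 genes of the red cell list, limma called 3 lower at 485 mg/kg and 2 higher, against 9.41% lower and 11.5% higher among named genes, shares near this background. The list median was -0.10, and 7 of the 20 genes had an unadjusted p under 0.05, against 25.9% of all probe sets. Hba-a3 was among the lower ones, with the embryonic globins Hbe1 (-0.27 ± 0.08, adjusted p = 0.0156) and Hbe2 (-0.18 ± 0.06, adjusted p = 0.0204), both below the array median. Hbe1 was not called without vehicle replicate 1 or 485 mg/kg replicate 1, nor Hbe2 without vehicle replicate 2 or 485 mg/kg replicates 1 or 4. Neither was called in the fit on only the 12 arrays compared. Slc25a37, the mitoferrin that brings iron into mitochondria, averaged 7.09 ± 0.21 at 485 mg/kg and 6.46 ± 0.14 in vehicle (SD, n = 6 each), and was higher by 0.63 ± 0.09 (SE, adjusted p = 1.08e-06). Dmtn, an actin-bundling protein of the red cell membrane, was higher by 0.24 ± 0.08 (adjusted p = 0.0425), a call lost in 10 of 43 alternatives. Bpgm (1383551_at), Ahsp and Slc4a1, whose slopes on Hbb are given above, were not called at 485 mg/kg. Their log2 differences were -0.08 ± 0.08, -0.11 ± 0.10 and -0.10 ± 0.09 (SE, limma adjusted p = 0.605, 0.561 and 0.563). At the other doses 0 of the 20 genes were called, with 1 to 4 at an unadjusted p under 0.05 per dose.

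Among 14 erythroid factors and progenitor genes, the transferrin receptor gene Tfrc rose most at 485 mg/kg, to 10.64 ± 0.35 against 8.47 ± 0.28 in vehicle (SD, n = 6 each; log2 difference 2.17 ± 0.17 SE, limma adjusted p = 3.36e-12). It was higher at 48.5 mg/kg by 0.75 ± 0.17 (adjusted p = 0.0073), and 0.0841 in a fit on those 12 arrays alone. Nfe2, a subunit of an erythroid and megakaryocyte factor, fell by 1.95 ± 0.56 on the log2 scale at 485 mg/kg (SE, adjusted p = 0.0122), with values from 4.35 to 6.56 at 485 mg/kg and from 4.55 to 8.37 in vehicle. Lmo2 (-0.34 ± 0.06, adjusted p = 0.000153) and Bcl11a (-0.30 ± 0.08, adjusted p = 0.00622), both regulators of blood cell formation, were also lower. The other 10 genes, Gata1 and Klf1 among them, did not pass. Among named genes 11.5% were called higher and 9.41% lower at 485 mg/kg.

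Alas1, the form of the liver and other tissues, was higher at 485 mg/kg. It averaged 12.64 ± 0.54 at 485 mg/kg against 10.62 ± 0.33 in vehicle (SD, n = 6 each), a log2 difference of 2.01 ± 0.18 (SE, limma adjusted p = 1.06e-10), where that of Alas2 was -0.55. The Alas1 difference at 48.5 mg/kg was 1.45 ± 0.18 (adjusted p = 1.34e-06) and that of Alas2 0.14. Of the 7 heme synthesis genes measured, Fech, the enzyme of the last step, was the other one called at 485 mg/kg (0.41 ± 0.09, adjusted p = 0.00132). Neither had a called slope on Hbb or Alas2.

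Of 13 other carbonic anhydrase genes, limma called 1 higher and 2 lower at 485 mg/kg, against 11.5% higher and 9.41% lower among named genes, so the counts are near the background. Car2, a cytosolic form found in many tissues and in red cells, ran from 9.13 over a median of 9.41 to 9.80 at 485 mg/kg, from 8.19 over 8.55 to 8.65 at 48.5 mg/kg and from 7.40 over 7.62 to 7.92 in vehicle, with no overlap with vehicle at either dose (4.30% of probe sets lay wholly above vehicle at 485 mg/kg and 1.52% at 48.5 mg/kg). Its log2 difference was 1.79 ± 0.14 at 485 mg/kg and 0.85 ± 0.14 at 48.5 mg/kg (SE, limma adjusted p = 1.89e-12 and 0.00012), the doses at which the differences of Car1 were -0.97 and -0.66. Car3, a form abundant in male rat liver, ran from 10.97 over 13.42 to 13.48 at 485 mg/kg and from 14.19 over 14.27 to 14.35 in vehicle (log2 difference -1.39 ± 0.23, adjusted p = 1.8e-05). The mitochondrial form Car5b fell by 0.42 ± 0.08 on the log2 scale (adjusted p = 0.000212). The median r of deviations of these 13 genes with Car1 was 0.01, and none had a called slope on it.

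**Figure D5:**
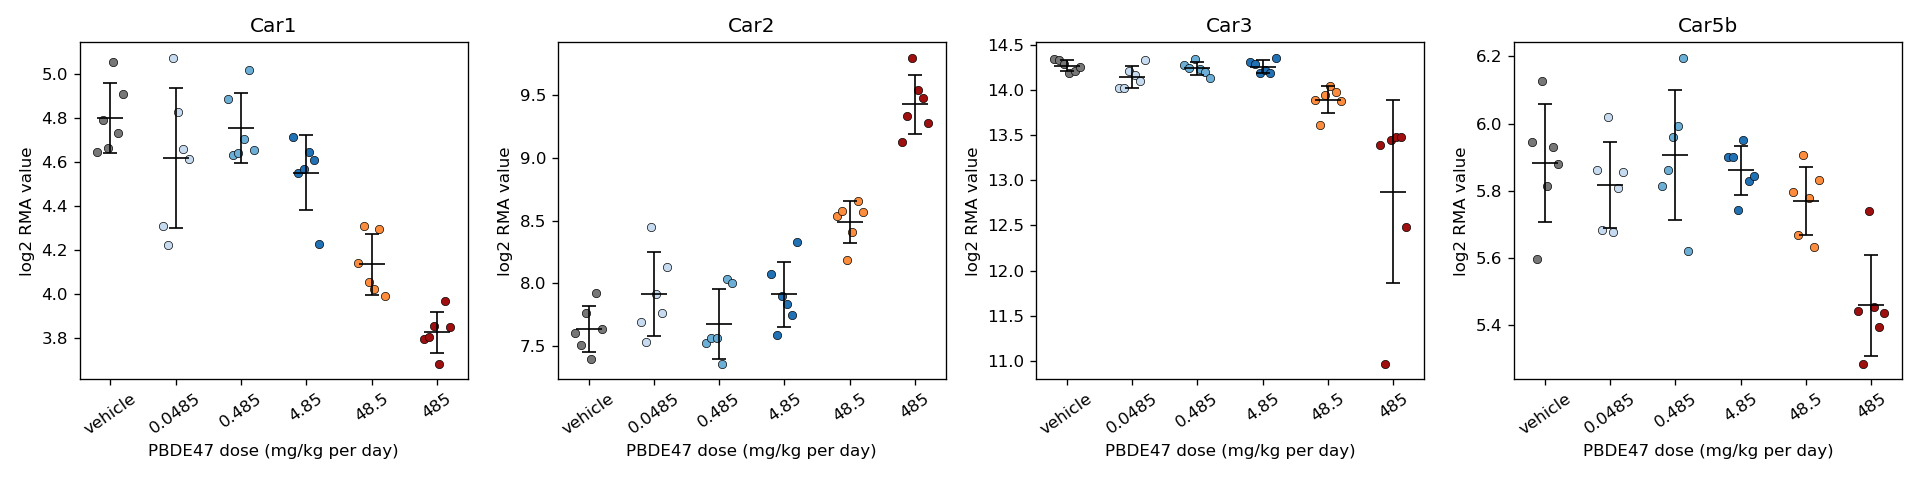
Log2 RMA value (vertical axes, a scale of its own per gene) of Car1, Car2, Car3 and Car5b by PBDE47 dose in mg/kg per day (horizontal axes). Each point is 1 animal, 6 per group, with mean ± SD. Car1, Car3 and Car5b are lowest and Car2 is highest at 485 mg/kg.

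Of 16 genes of iron and hemoglobin handling in the liver, 4 were called higher and 6 lower at 485 mg/kg, against 11.5% and 9.41% of named genes, with a median log2 difference of -0.12. Blvrb, a biliverdin reductase, was higher by 1.02 ± 0.06 (limma adjusted p = 2.21e-15) and the heme oxygenase gene Hmox1 by 0.67 ± 0.09 (adjusted p = 3.13e-07), while Steap3, a ferrireductase, was lower (-0.82 ± 0.13, adjusted p = 6.38e-06). At 48.5 mg/kg 2 were higher and 0 lower, against 4.03% and 1.08% of named genes. The median r of deviations of these genes was 0.04 with Hbb, 0.04 with Alas2 and 0.08 with Car1.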

How the data were processed

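Liver RNA of 36 rats was measured on 36 arrays. The values deposited by the authors are log2 signals of each probe set on each array, from RMA in the R package affy per the submitters' processing notes; versions are not given in the sources used here. Arrays have no read depth; their number sets the precision. Of 31099 probe sets, 57 controls were left out and 31042 tested with no filter on level. The members and the 11 gene lists were chosen with earlier results of these data known.

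Each dose was compared with vehicle with limma 3.58.1 in R 4.3.3 (lmFit, eBayes), in a one-way model of all 36 arrays (30 residual and 5.26 prior degrees of freedom), two-sided, with Benjamini-Hochberg adjustment over all probe sets and a threshold of 0.05. A second model added the value of Hbb, Alas2 or Car1 to the groups and tested its slope over 31039 probe sets, adjusted likewise. A gene was read by its probe set with the highest mean among those assigned to it alone. The rule for named genes took the called genes of each list, up to 4 per direction, and the 10 highest and 3 lowest r per member. Both procedures were tested on simulated data. Alternatives were a replicate block, quantile normalization, median centring, the 15521 brighter probe sets, the ordinary test, trend and robust settings, array weights, only the 12 arrays compared, and each animal left out. The Entrez identifiers of all 3 genes matched RefSeq, and upstream sequences come from RefSeq, build GRCr8.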

Additional observations from a re-analysis of the deposited data

Results flagged for a closer look

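Of 150 dose groups of 6 animals (25 probe sets in 6 groups), 9 held an animal far from the others of its group, measured as its gap to the nearest animal over the group's whole range, above the critical value of Dixon's test. Chance gives about 1 in 20 groups. Car1 was 4.23 in replicate 6 of 4.85 mg/kg, where the next animal had 4.55, and the array of this animal had the lowest mean correlation with its group. The joint Hbbl1 and Hbb-bs probe set 1371245_a_at was 10.80 in replicate 1 of 48.5 mg/kg, where the next animal had 11.46, and the same animal was lowest of its group in Hbb and Alas2. Cdc25b was 5.32 in vehicle replicate 6, the animal highest of its group in Hbb and Alas2.

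The other 6 were in genes that are no members. Slc25a37 was 6.18 in replicate 6 of 0.485 mg/kg. Hbe2 was 4.50 and Alas1 10.86 in replicate 3 of 0.0485 mg/kg. Nfe2 was 4.55 in vehicle replicate 5, Fech 10.69 in replicate 2 of 4.85 mg/kg and Car5b 5.74 in replicate 3 of 485 mg/kg.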

How the results depend on the processing

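The 6 alpha and beta globin probe sets were called lower at 485 mg/kg, and followed Hbb and Alas2 within groups, in every alternative run. They are not independent of Hbb, whose levels and covariation with Alas2 were known at the choice. Nothing further is therefore read from these repeats. Of 50 called genes and slopes 39 stayed called in every alternative and 0 reversed. The fit on the 12 arrays compared called 1 probe set at 4.85 mg/kg (6 with all arrays), 556 at 48.5 mg/kg (1052) and 2 red cell genes at 485 mg/kg (5). The brighter probe sets alone also gave 2 red cell genes, but Hbe1, Hbe2 and Dmtn are not among them and could not be called. Leaving out each animal in turn gave 678 (without 48.5 mg/kg replicate 5) to 1165 calls at 48.5 mg/kg. It gave 3 to 5 called red cell genes at 485 mg/kg, with 3 without vehicle replicate 2 or 485 mg/kg replicates 1 or 4, and 0 to 1 at 48.5 mg/kg, with 1 without vehicle replicate 4. It gave 0 to 1 probe sets that follow Car1, and the ordinary test gave 1. The r of Hbb with Car1 was 0.47 over values and -0.03 over deviations. The causes were not tested. No mean over probe sets was run for Hbb, Alas2 or Car1, since each has 1.

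Replicate numbers paired the animals weakly or not at all: same-numbered animals of different groups correlated at r of -0.18 to 0.23 (mean 0.02). For 11 of 36 arrays the mean r with arrays of other groups was highest for their own number. By chance each of the 6 numbers would have an equal share, and the excess was not tested. With the replicate number as a block, 1071 probe sets were called at 48.5 mg/kg and 4745 at 485 mg/kg, 7 followed Hbb, 6 followed Alas2 and 0 followed Car1, and the slopes of Bpgm on Hbb and Cdc25b on Alas2 were not called.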
